A study of Mus musculus with 27 samples.

Results

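The cells described here were 217 skin cells that carried Krt15 together with transcripts of Krt24, Shisa2 or Gdf10, out of 28373 filtered cells from the back skin of 2 wild-type mice. A cell was taken as a member when it had at least 500 detected genes, at least 1000 UMIs (molecular tags that count each captured transcript once) and under 10% mitochondrial UMIs, at least 3 UMIs of Krt15, at least 2 UMIs summed over Krt24, Shisa2 and Gdf10, and at least 0.2% of its UMIs from the basal keratins Krt5 and Krt14. Mouse 1 held 101 member cells and mouse 2 held 116. The comparison cells were the other 3739 filtered cells with at least 3 Krt15 UMIs, 1982 in mouse 1 and 1757 in mouse 2. Of these, 1111 also met the basal keratin limit, 601 in mouse 1 and 510 in mouse 2, and they served as a narrower comparison. The members were thus chosen by measured values of 6 genes, which are given as a description without a test.

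The study asked how retinoic acid acts on the choice of fate in hair follicle stem cells (HFSCs), and it used anagen skin as a reference for cultured cells. Both skin mice were wild-type with no treatment, strain or sex given in the labels, at postnatal day 32 with follicles in full growth (anagen VI), and their cells had been sorted as negative for CD45, CD31, CD140a and CD117, surface proteins of blood, endothelial, dermal and melanocyte or mast cells. CD34+ HFSCs of the same mice had been cultured and pooled from mixed media before single cell sequencing. Bulk RNA-seq covered 8 libraries of HFSCs isolated in the resting phase (telogen) at postnatal day 55, from wild-type mice or Rxra cKO mice. The cells were cultured with serum (FBS) or with all-trans retinoic acid and a protein kinase C inhibitor (atRA+PKCi), with 2 libraries per genotype and medium. The Rxra cKO mice were Sox9-CreER;Rxra-fl/fl;R26-YFP, in which an inducible Cre made in Sox9-expressing cells removes the floxed gene of the retinoid X receptor alpha and switches on a yellow fluorescent reporter. The deletion is thus limited to cells that express Sox9 when Cre is induced.

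Krt15 encodes a type I keratin of basal epithelial cells and has long served as a marker of the bulge, the part of the outer root sheath that keeps the stem cells of the follicle through its cycles of growth and rest. Above the bulge lie the isthmus, the junctional zone and the infundibulum, whose cells renew the upper follicle and carry other markers, among them Lrig1, Lgr6, Plet1 and Krt79. Below it, in a growing follicle, the outer root sheath runs down to the hair matrix, where dividing cells make the hair shaft and the inner root sheath. Bulge stem cells divide rarely and sit on a basement membrane, under BMP signals that hold them at rest and WNT signals that start growth.

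Krt24 encodes a further type I keratin, Shisa2 a membrane protein that holds back the maturation of FGF and WNT receptors, Gdf10 a secreted ligand of the TGF-beta superfamily and Sfrp1 a secreted antagonist of WNT ligands. All 5 label markers are protein-coding genes. On mouse build GRCm38, Krt15 lies at chr11:100131758-100135928 and Krt24 at chr11:99279959-99285262, both on the minus strand. Shisa2 lies at chr14:59625308-59631660, Gdf10 at chr14:33923587-33937983 and Sfrp1 at chr8:23411502-23449632, each on the plus strand.

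Shisa2 brought most member cells through the gate. It was detected in 87 of 101 members in mouse 1 and 105 of 116 in mouse 2, against 33 and 36 for Gdf10 and 19 and 14 for Krt24. Shisa2 was the only detected gate gene in 57 and 74 members, while 44 and 42 carried a UMI of Krt24 or Gdf10. Free RNA can give a UMI in cells that do not express a gene. Gdf10 was found in 11.9% and 20.7% of collagen-rich reference cells, at least 1% of whose UMIs came from 3 collagen genes (median depth 9170 and 11858 UMIs) and in 2.50% and 3.53% of the other Krt15 cells with basal keratins, beside 32.7% and 31.0% of members (7457 and 9412 UMIs). After thinning to 3000 UMIs the shares were 18% and 21.2% of members and 5.05% and 8.19% of collagen-rich cells. Whether the collagen-rich cells expressed Gdf10 themselves was not tested. For Krt24 the collagen-rich cells stood at 0.0311% and 0.133%, and for Shisa2 at no more than 2.15%. All 3 gate genes were found together in only 4 and 5 cells. Members with at least 2 UMIs of a single gate gene other than Shisa2 were few, 2 and 1 for Krt24 and 8 and 7 for Gdf10.

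In CPM, the UMI count of a gene scaled to the same total in each summed set of cells, Shisa2 stood at 217 in mouse 1 and 215 in mouse 2, against 19.3 and 18.5 in the other Krt15 cells with basal keratins. Gdf10 stood at 75.8 and 68.9 against 3.05 and 3.14. Krt24 stood at 53.1 and 54.1 against 1.02 in mouse 1 and 0 in mouse 2. Those gaps were set by the rule. Krt15 itself stood at 5208 and 3010 in the members, against 1843 and 1701 in all other Krt15 cells and 3528 and 2856 in those with basal keratins. Per cell, the median Krt15 count was 29 UMIs in the members of mouse 1 and 20 in those of mouse 2, with maxima of 224 and 186, and 12 and 13 in the others. Once each cell was thinned to 3000 UMIs, Krt15 was detected in 96.0% and 92.9% of members and in 96.8% and 95.5% of the others with basal keratins. All cells of both sets had at least 3 Krt15 UMIs by the rule, so these shares do not measure its level. In the others with basal keratins the median count was 19 and 17.5 UMIs. By sum and median, Krt15 was higher in the members of mouse 1 than in those others, and closer to them in mouse 2.

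**Figure D1:**
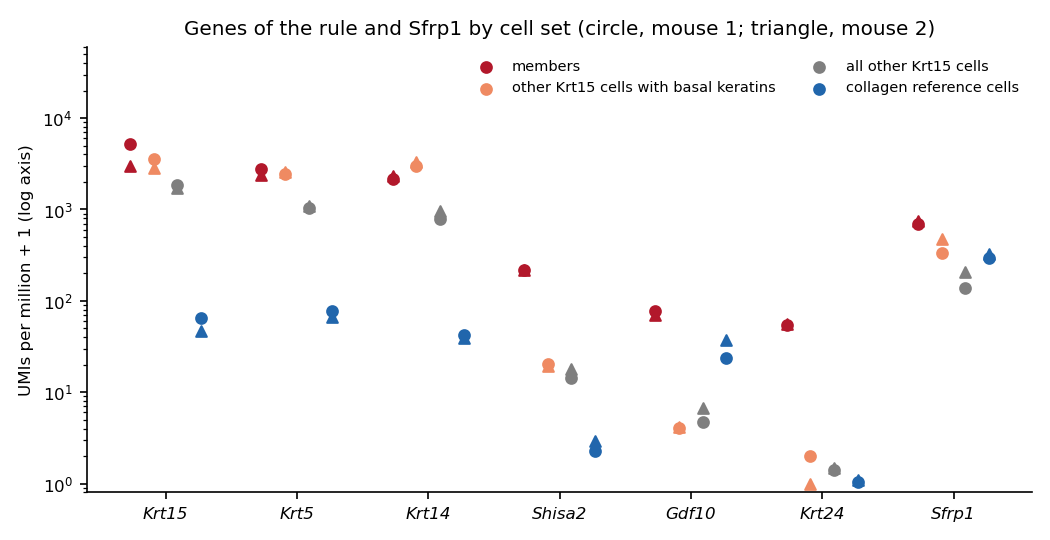
Summed level of the 6 genes of the rule and Sfrp1 in CPM plus 1 (vertical log axis) for the members, the other Krt15 cells, those with basal keratins and collagen-rich reference cells, with a circle for mouse 1 and a triangle for mouse 2. Krt24, Shisa2 and Gdf10 separate the members as the rule sets, while Krt15, Krt5 and Krt14 lie close to their level in the other Krt15 cells with basal keratins.

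Sfrp1 was the only label marker that the rule did not read. For this and all other tested genes, levels are CPM after the 6 rule genes were left out, and fold changes come from edgeR on the sums of 2 mice, with a gene called at an adjusted p under 0.01 and a log2 fold change beyond 1. Sfrp1 stood at 693 and 746 in the members, at 137 and 206 in all other Krt15 cells and at 338 and 479 in those with basal keratins. Both mice were higher in the members in either comparison. Sfrp1 rose by log2 2.10 ± 0.21 (SE, n = 2 mice, adjusted p = 0.0021) against all others, and the difference of 0.79 ± 0.18 against the basal cells was not called (adjusted p = 0.0907). After thinning, Sfrp1 was detected in 69.0% and 67.3% of members, 42.7% and 49.7% of the basal others and 39.8% and 41.8% of collagen-rich reference cells.

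The label places these cells in the upper follicle, and the markers of that region were set against it. Of 7 isthmus and junctional zone genes, summed levels were 317 and 386 CPM in the members, 1210 and 693 in all other Krt15 cells and 1983 and 1087 in the basal others. Krt79 and Cst6 were lower than in all others, and Krt79, Cst6, Defb6 and Plet1 were lower than in the basal others. Lrig1, a stem cell regulator of the junctional zone, stood at 183 and 266 in the members and 232 and 232 in the basal others, a difference of log2 -0.07 ± 0.19. Lgr6 stood at 20.8 and 45.5 against 33.1 and 37.7. Per cell the values differed less, and the median of the list was 255 CPM in the members and 219 in all others of mouse 1, and 295 and 252 in mouse 2. At least 3 UMIs of the list were found in 41.6% and 60.3% of members and in 45.6% and 57.4% of all others. The lower sums did not extend to the median cell. Of the bulge markers, 3 of 12 transcription factors and 3 of 11 surface, matrix and secreted genes were called higher against all others, and 1 of 12 and none of 10 against the basal others. The place in the label was not settled by these lists, and the cells are called by their rule.

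At the edges of the rule, 10 of the 217 members had exactly 3 Krt15 UMIs, and 23 cells that met every other limit had 2. A gate sum of exactly 2 UMIs was found in 106 members, while 239 cells stopped at 1 and 872 had none. Basal keratins lay between 0.2% and 0.25% in 33 members and between 0.15% and 0.2% in 46 cells left outside. Almost as many cells thus sat at the lowest gate sum as above it. A further 145 Krt15 cells met the gate and missed the basal keratin limit, and they stayed among the others.

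The members made up 0.699% of filtered cells in mouse 1 (95% Clopper-Pearson interval 0.569 to 0.848) and 0.834% in mouse 2 (0.689 to 0.999), intervals that cover counting error only. They were 4.85% and 6.19% of the Krt15 cells. When each cell was thinned to 3000 UMIs before the rule was applied, 34 and 30 cells remained, or 0.250% and 0.234% of cells deep enough, a lower share in both mice. Median depth was 7457 and 9412 UMIs in the members, 9601 and 12216 in all other Krt15 cells and 7384 and 10073 in the basal others. The members together held 923219 and 1219070 UMIs.

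Scrublet marked 14 and 3 members as doublets, or 13.9% and 2.59%, and 224 and 82 of the others, or 11.3% and 4.67%. The shares of all filtered cells were 5.76% and 2.21%. No member barcode was shared between the mice, and 46 filtered barcodes were. Cells with at least 1% of UMIs from Col1a1, Col1a2 and Col3a1, 6435 and 6746 in number despite the sort, served as a reference. A UMI in them can come from free RNA or from their own expression, and which was not tested. Krt15 was detected in 8.88% and 6.93% of them after thinning. The same collagen limit was met by 6 of 101 and 5 of 116 members, with maxima of 6.40% and 4.20%. It was met by 169 of 1982 and 167 of 1757 of the others. Fibroblast markers were present in the members at 7875 and 5254 CPM over 6 genes, against 6520 and 8509 in the others, and none of the 6 was called. Endothelial markers summed to 1.08 and 4.10 CPM in the members with 4 and 3 of 5 genes at 0, and immune markers to 15.2 and 25.4 with 3 and 1 of 6 at 0. Dermal papilla markers reached 212 in the members of mouse 1, where 5 cells carried at least 3 UMIs of them, and 21.3 in mouse 2, against 37.0 and 43.7 in the others. The part of those cells in the results was not tested.

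Against all other Krt15 cells, called genes that were higher in the members included Sox9, Nfatc1 and Tbx1 of the bulge, Col17a1 and Npnt of the basement membrane and the secreted antagonists Sfrp1, Dkk3, Grem1, Fst and Sostdc1. The antagonists did not share a direction as lists. Of the tested genes, 8 of 12 WNT inhibitors and 6 of 13 BMP and TGF-beta inhibitors had a negative log2 fold change. Of the antagonists named here, Dkk3 alone was also called against the basal others. Called genes that were lower included Krt79 and Cst6 of the isthmus, Krtdap of suprabasal cells, Cux1 of the hair matrix and Krt71 of the inner root sheath. The edgeR test called 143 genes higher and 54 lower of 14664, or 0.975% and 0.368% of tested genes. With the mouse as a block, which pairs members and others of one animal, 308 were higher and 240 lower, among them all of the 143 and 54. With 2 mice, these p-values rest on the spread between 2 animals, which edgeR moderates with the spread over all genes. The groups did not overlap in any called gene, while 22.9% of all tested genes were higher and 31.4% lower in the members without overlap. The median of all genes was log2 -0.04.

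Of the other Krt15 cells, 30.3% and 29.0% met the basal keratin limit, which all members met by rule. Against the basal others alone, 25 genes were higher and 45 lower of 12008, or 0.208% and 0.375% of tested genes, and 86 and 126 with the mouse as a block. Of the 143 genes higher against all others, 142 kept the sign and 20 kept the call, with a median of log2 0.90 in place of 1.74. Of the 54 lower genes, 53 were tested, 52 kept the sign and 9 kept the call, with a median of -0.64 in place of -1.82. Of the 58 genes named below and called against all others, 15 were also called against the basal others. Values of both comparisons are therefore given side by side.

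**Figure D2:**
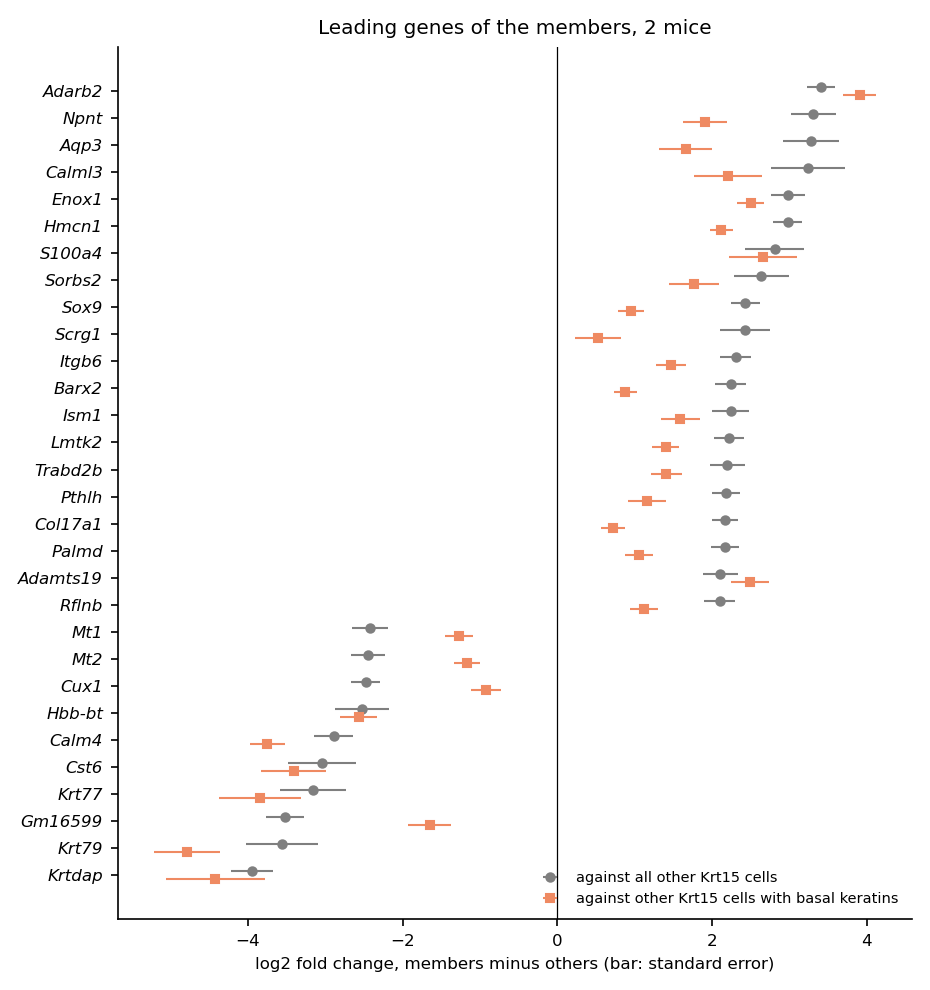
Log2 fold change of the leading genes (horizontal axis, bar for the standard error from the edgeR test on 2 mice) in the members against all other Krt15 cells (grey circles) and against those with basal keratins (orange squares). Adarb2, Hmcn1, Enox1 and Adamts19 lie far to the right in both, whereas Scrg1 and Cux1 move toward 0 in the narrower comparison.

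Adarb2, which encodes an RNA-binding protein of the adenosine deaminase family, was among the genes with the largest rise. It stood at 108 and 103 CPM in the members, 9.17 and 11.05 in all others and 7.60 and 6.16 in the basal others. Both member sums lay far above every other sum. It rose by log2 3.41 ± 0.18 (adjusted p = 0.000281) against all others and by 3.91 ± 0.21 (adjusted p = 0.00013) against the basal others. Enox1, an oxidoreductase of the cell surface, stood at 274 and 286 against 28.2 and 44.2 and against 43.8 and 53.0. It was higher by 2.98 ± 0.22 and by 2.50 ± 0.17, called in both. Adamts19, a secreted protease of the ADAMTS family, stood at 86.5 and 133 against 22.6 and 16.2 in the basal others and rose there by 2.49 ± 0.25 (adjusted p = 0.00242).

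Several leading genes encode proteins of the matrix or its receptors. Hmcn1, or hemicentin, an extracellular protein at epithelial junctions, stood at 648 and 686 in the members, 72.2 and 100 in all others and 147 and 153 in the basal others. The members were the 2 highest sums, and the changes were log2 2.98 ± 0.19 and 2.12 ± 0.15 (adjusted p = 0.000657 and 0.000442). Npnt, or nephronectin, the matrix ligand by which bulge cells anchor the arrector pili muscle, stood at 129 and 67.8 against 9.26 and 10.6 and against 22.6 and 28.0. It rose by 3.31 ± 0.29 against all others, and the 1.91 ± 0.29 against the basal others had an adjusted p of 0.014. Itgb6, the beta subunit of an integrin that releases TGF-beta from its latent form, rose by 2.31 ± 0.20 and by 1.47 ± 0.19, called in both. Tnc, or tenascin C, stood at 381 and 399 against 112 and 139 and against 183 and 210, and was called against all others only.

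Among hemidesmosome and basement membrane genes, 6 of 20 tested were called higher against all others and none lower, 19 had a positive log2 fold change and the median was 0.945, against -0.04 over all genes. Col17a1, the hemidesmosomal collagen that HFSCs need to keep their place, stood at 664 and 614 CPM in the members, 131 and 158 in all others and 338 and 419 in the basal others. Both member sums were the highest, with a change of log2 2.17 ± 0.17 against all others and 0.72 ± 0.16 (adjusted p = 0.0754) against the basal ones. Itgb4, Lamb3 and Col7a1 rose by 1.405 ± 0.17, 1.68 ± 0.18 and 2.36 ± 0.24. None of the 20 was called against the basal others, where the median was 0.31, and at an adjusted p under 0.05 Npnt, Col7a1 and Egfl6 were higher.

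Among 12 transcription factors of HFSCs, Sox9, Nfatc1 and Tbx1 were called higher, none was lower, and all 12 had a positive log2 fold change with a median of 0.85. Sox9, which sets and maintains the stem cell program of the follicle, stood at 304 and 411 CPM in the members, 62.3 and 73.3 in all others and 180 and 184 in the basal others. It rose by log2 2.43 ± 0.19 (adjusted p = 0.00112) against all others, and by 0.95 ± 0.17 (adjusted p = 0.0319) against the basal others, short of the call. After thinning to 3000 UMIs, Sox9 was detected in 50% and 67.3% of members, 33.3% and 34.9% of basal others and 3.05% and 3.50% of the collagen-rich reference cells. Nfatc1, which keeps bulge cells at rest, stood at 39.4 and 39.7 against 7.49 and 6.92 and rose by 2.48 ± 0.22, with 1.31 ± 0.25 (adjusted p = 0.0424) against the basal others.

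Tbx1, a T-box factor that restrains HFSC division, stood at 200 and 264 in the members, 85.6 and 102 in all others and 162 and 149 in the basal others, and rose by log2 1.34 ± 0.18 against all others. Lhx2, the LIM factor of bulge cells, was the reverse case. It stood at 149 and 182 against 89.7 and 94.4, a difference of 0.87 ± 0.16 that was not called, and against 70.9 and 69.2 in the basal others, where the rise of 1.21 ± 0.17 was called (adjusted p = 0.00909). Both members lay above all 4 other sums. Nfix and Nfib, nuclear factor I proteins of HFSC chromatin, stood at 512 and 499 and at 1679 and 2070 in the members, with differences of 0.57 ± 0.15 and 0.56 ± 0.18 that were not called. Tcf7l1 and Tcf7l2, which repress WNT targets in the resting bulge, differed by 0.83 ± 0.22 and 0.53 ± 0.16 (adjusted p = 0.0638 and 0.0961).

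Of 11 tested surface, matrix and secreted genes of HFSCs, Npnt, Tnc and Cxcl14 were called higher and none lower. Cxcl14, a chemokine of the follicle, stood at 1641 and 1573 against 707 and 868 and rose by log2 1.05 ± 0.16, close to the limit of the call (adjusted p = 0.009999). Cd34, the surface protein used to sort bulge cells, stood at 197 and 146 in the members, 92.4 and 86.1 in all others and 89.8 and 71.0 in the basal others. The members were higher in both mice by 0.95 ± 0.19 (adjusted p = 0.0285), which was not called. Cd34 was detected after thinning in 34.0% and 23.0% of members and in 74.6% and 63.0% of collagen-rich cells, a share above that of the members. Of the 180 Cd34 UMIs in members of mouse 1, 19 came from a single doublet-marked cell with 6.40% collagen UMIs. Lgr5, the R-spondin receptor of the lower bulge and outer root sheath, stood at 431 and 402 against 269 and 357, a difference of 0.44 ± 0.17 (adjusted p = 0.187).

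Outer root sheath genes gave no common direction. Krt17, a keratin of the outer root sheath, stood at 3352 and 3239 in the members against 1310 and 1129, and Barx2, a homeobox factor, at 562 and 661 against 110 and 154. They rose by log2 1.45 ± 0.16 and 2.24 ± 0.20 against all others and differed by 0.34 ± 0.16 and 0.88 ± 0.15 from the basal others, without a call. Krt6a, an inducible keratin of the companion layer and inner bulge whose reads may be shared with a close copy, stood at 94.1 in mouse 1 and 34.7 in mouse 2 against 7.72 and 4.38, and was called only against all others. The median of 6 lower outer root sheath genes was 0.03, with 2 higher and none lower.

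In the summed counts, isthmus and junctional zone genes had the lowest median of the epithelial lists. It was log2 -2.43 against all others, with 2 of 7 called lower and none higher, and -3.41 against the basal others, with 4 called lower. Krt79, a keratin of the cells that form the hair canal, stood at 17.5 and 7.44 CPM in the members, 185 and 99.7 in all others and 417 and 228 in the basal others. Both members lay below every other sum, and the level fell by log2 3.56 ± 0.47 and by 4.79 ± 0.43 (adjusted p = 0.00625 and 0.00157). Krt79 was detected in 8.91% and 6.90% of members, 11.1% and 9.22% of all others and 18.5% and 17.3% of the basal others, so a minority of cells in each set carried these sums. Cst6, an inhibitor of cysteine proteases in cornifying cells, stood at 54.7 and 45.5 against 585 and 238 and against 733 and 300. It fell by 3.04 ± 0.44 and by 3.41 ± 0.42 in the sums, while a UMI of it was found in 30.7% and 20.7% of members, 20.7% and 17.2% of all others and 23.6% and 21.4% of the basal others. Defb6, a defensin of the upper follicle, stood at 24.1 and 10.8 against 473 and 223 in the basal others and was called there, with -4.41 ± 0.47.

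Single suprabasal genes were called lower, while the list as a whole did not go one way. Its summed level was 1261 and 748 CPM in the members, 1039 and 1060 in all others and 1222 and 2178 in the basal others. Per cell, its median was 555 and 349 CPM in the members and 134 and 122 in all others, and 61.4% and 61.2% of members held at least 3 of its UMIs, against 33.7% and 35.7% of all others. Of 12 suprabasal genes, Krtdap, Calm4 and Krt77 were called lower and none higher, with 4 positive and 8 negative and a median of log2 -1.25. Krtdap, a secreted protein of differentiating keratinocytes, stood at 10.9 and 7.44 against 124 and 158 and against 92.4 and 287, and fell by 3.95 ± 0.27. Calm4, a calcium-binding protein of the epidermis, stood at 10.9 and 16.5 against 114 and 97.7 and against 174 and 197, and fell by 2.89 ± 0.25 and 3.75 ± 0.23, called in both. Sbsn and Dmkn, secreted suprabasal proteins, went the other way at 499 and 300 against 142 and 102, and at 496 and 300 against 132 and 159, without a call (adjusted p = 0.0122 and 0.0138).

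Of 6 interfollicular basal genes, Ly6d and Mt2 were called lower against all others, and Ly6d, Klf5 and Cdh13 against the basal others. Ly6d, a surface protein of the basal epidermis and upper follicle, stood at 49.3 and 40.5 in the members, 263 and 213 in all others and 706 and 638 in the basal others. Both members were the lowest sums, with changes of log2 -2.40 ± 0.21 and -3.94 ± 0.19 (adjusted p = 0.00132 and 9.86e-05). Klf5, a zinc finger factor of the epidermis, stood at 41.6 and 45.5 against 79.7 and 74.7 and against 111 and 132. The difference of -0.80 ± 0.18 from all others was not called (adjusted p = 0.0409), and the change of -1.502 ± 0.19 from the basal others was (adjusted p = 0.0074). Mt1 and Mt2, the metallothioneins, stood at 288 and 227 and at 141 and 118 against 1611 and 1169 and 825 and 608 in all others, falling by 2.42 ± 0.23 and 2.45 ± 0.22.

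Hair matrix, inner root sheath and division lists held calls against all others and none against the basal others. Of 8 matrix genes, Cux1, Dlx3 and Odc1 were called lower, and of 6 inner root sheath genes Krt71 was. Cux1, a homeobox factor of the matrix and inner root sheath, stood at 186 and 237 in the members, 1071 and 1328 in all others and 337 and 450 in the basal others. It fell by log2 2.48 ± 0.19 against all others, and the -0.92 ± 0.19 from the basal others was not called (adjusted p = 0.0581). Gm16599, an antisense transcript inside Cux1, followed it at 18.6 and 10.8 against 158 and 175. None of the matrix or inner root sheath genes was called against the basal others, where the medians were -0.09 and -0.42.

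All 16 cell cycle genes were lower in the members than in all others, with a median of log2 -1.05, 10 at an adjusted p under 0.05 and Mcm3 alone called. Mki67, the proliferation marker, stood at 95.2 and 141 in the members, 262 and 258 in all others and 112 and 135 in the basal others, with differences of -1.10 ± 0.20 and -0.08 ± 0.20. Against the basal others the median was -0.10 and none was called. Immediate early genes of dissociation stress summed to 8892 and 5628 CPM in the members, 5266 and 4559 in all others and 8908 and 7439 in the basal others, and none of 16 was called in either comparison. Haemoglobin transcripts, which come from red cells, were lower in the members: Hbb-bt stood at 20.8 and 16.5 against 134 and 80.0 and fell by 2.52 ± 0.35.

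**Figure D3:**
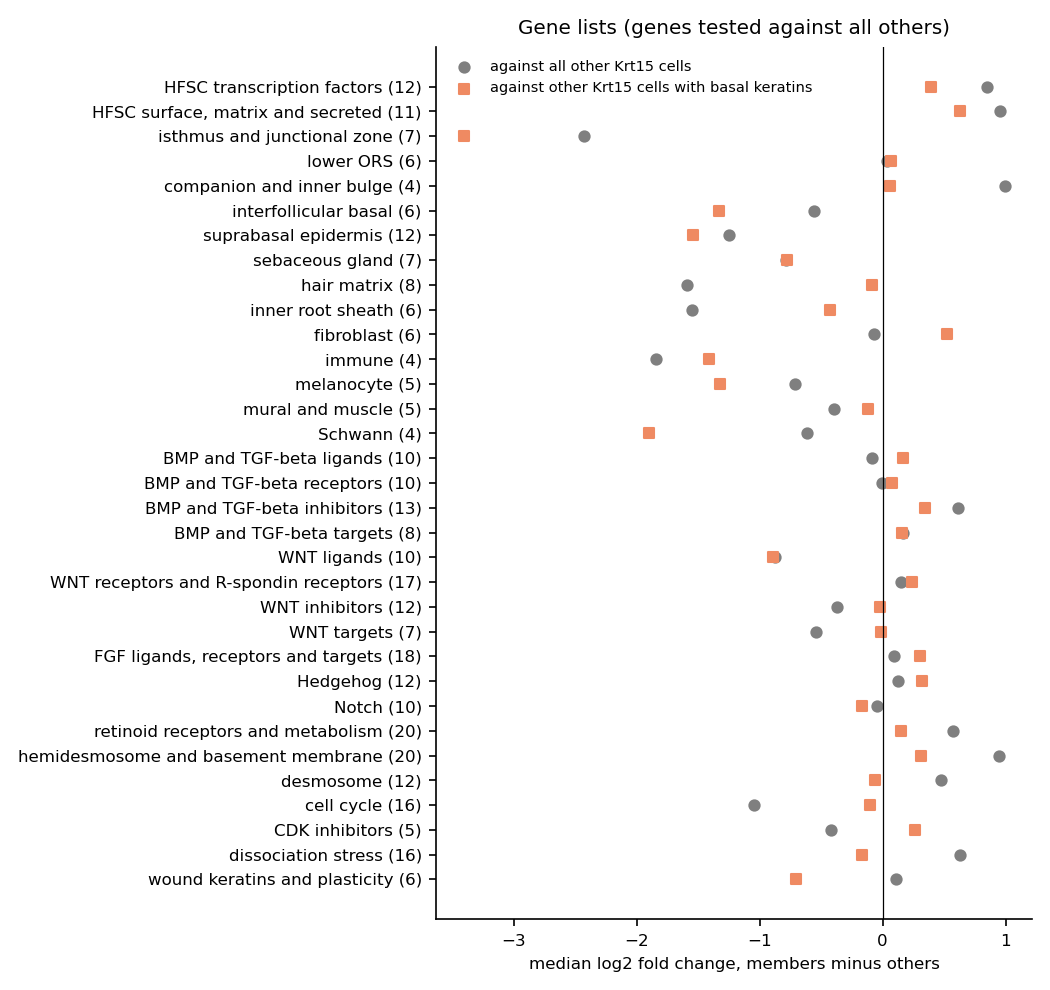
Median log2 fold change of each gene list (horizontal axis, number of tested genes in brackets) in the members against all other Krt15 cells (grey circles) and against those with basal keratins (orange squares). The medians over genes of the isthmus and suprabasal lists lie left of 0 in both, while the cell cycle, hair matrix and inner root sheath lists lie left of 0 in the wider comparison and close to it in the narrower one.

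Some BMP antagonists rose against all others. Of 13 inhibitors, Grem1, Fst and Sostdc1 were called higher and none lower, with 7 positive and 6 negative, and of 10 receptors none was called in either direction. Sostdc1, which blocks both BMP and WNT signals, stood at 265 and 232 in the members, 81.1 and 73.5 in all others and 277 and 203 in the basal others. It rose by log2 1.70 ± 0.17 against all others and differed by 0.02 ± 0.19 from the basal others. Fst, or follistatin, which binds activins and BMPs, rose by 1.24 ± 0.17 and differed by 0.18 ± 0.18 from the basal others. Grem1, a secreted BMP antagonist, was uneven between the mice at 64.6 and 19.8 against 1.95 and 3.09. Grem1 is also made by dermal papilla cells, whose markers were high in mouse 1 alone as given above, and their part in the result was not tested. It rose by 4.035 ± 0.51, and the 3.26 ± 0.59 against the basal others was short of the call (adjusted p = 0.0296). Of the ligands, Inhbb, which forms activin B, rose by 2.02 ± 0.24, and of the targets Tgfbi rose by 1.82 ± 0.24.

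WNT receptors, ligands and antagonists each held called genes. Of 12 WNT inhibitors, Sfrp1 and Dkk3 were called higher and none lower, while 8 of the 12 were negative and the median was log2 -0.37. Fzd2, a WNT receptor, stood at 176 and 174 in the members, 50.5 and 56.1 in all others and 70.9 and 75.5 in the basal others. The members were the highest sums in each mouse, and the rise was log2 1.74 ± 0.15 and 1.23 ± 0.16, called in both. Dkk3, a secreted protein of the Dickkopf family, stood at 93.0 and 93.4 against 18.6 and 26.02 and against 36.2 and 40.9 and was called in both, with 2.09 ± 0.20 and 1.24 ± 0.17. Fzd3 rose by 1.79 ± 0.22 and Fzd10 fell by 1.77 ± 0.25 against all others only. Wnt5b, a noncanonical ligand, rose by 1.79 ± 0.22. Of 7 tested WNT targets none was called, and Lef1, the effector of the matrix, stood at 119 and 76.1 against 225 and 164 without a call (adjusted p = 0.0649).

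In the Hedgehog list, Gas1, a co-receptor, rose by log2 1.63 ± 0.21 and Ptch1, a receptor that is also a target of the pathway, fell by 1.38 ± 0.17, at 62.4 and 66.2 against 161 and 180. Neither was called against the basal others. Of 18 FGF genes none was called against all others, and Fgfbp1, which releases FGFs from the matrix, was lower than in the basal others at 60.2 and 42.2 against 176 and 187 (log2 -1.88 ± 0.20, adjusted p = 0.00377). None of 10 Notch genes was called.

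Retinoid genes, the subject of the study, showed no call among 20 tested, with a median of log2 0.58 against all others and 0.15 against the basal others. Rxra, the receptor that the study deleted, stood at 56.9 and 72.8 in the members and 44.9 and 46.9 in all others, a difference of 0.53 ± 0.18 (adjusted p = 0.128). Rarg, its main partner in skin, stood at 87.6 and 77.7 against 53.3 and 53.7 (adjusted p = 0.06) and against 75.2 and 78.7 in the basal others. Both receptors were higher than in all others in each mouse, short of the call. At an adjusted p under 0.05, Dhrs9, an enzyme of retinol oxidation, stood at 158 and 215 against 59.6 and 96.5 in all others. Lrat, which stores retinol as esters, stood at 7.66 and 10.8 against 2.13 and 1.63. Aldh1a3, which makes retinoic acid, stood at 7.66 and 5.79 against 29.0 and 19.9. The member levels of Lrat and Aldh1a3 rest on few UMIs. Against the basal others, 1 of 18 tested retinoid genes was higher at that threshold and 0 were lower.

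The remaining leading genes included channels, transporters and proteins of the cytoskeleton. Aqp3, a water and glycerol channel of keratinocytes, stood at 136 and 109 against 17.3 and 8.13 and rose by log2 3.28 ± 0.36. Calml3, a calmodulin-like protein of epithelia, stood at 157 and 79.4 against 17.98 and 6.96 and rose by 3.24 ± 0.48. S100a4, a calcium-binding protein, stood at 232 in mouse 1 and 86.8 in mouse 2 against 21.8 and 23.6, and Sorbs2, an adaptor of the actin cytoskeleton, at 65.7 and 154 against 20.8 and 15.5. These 4 were higher than in the basal others in both mice, none with a call there. Lmtk2, a membrane kinase, and Trabd2b, a protease that inactivates WNT ligands, rose by 2.22 ± 0.19 and 2.20 ± 0.23 and were called against the basal others too, by 1.401 ± 0.18 and 1.41 ± 0.20. Ism1, Scrg1, Palmd, Rflnb and Pthlh, the last of which encodes parathyroid hormone-related protein, rose by 2.10 to 2.43 against all others without a call against the basal ones.

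Members that passed the gate through different genes differed from each other. The planned comparison of cells by 1 gate gene could not be fitted, because the Shisa2 cells alone reached 20 in each mouse. In its place, members with a UMI of Krt24 or Gdf10 (44 and 42 cells) were set against those with Shisa2 alone (57 and 74 cells). Gdf10 was also found in collagen-rich cells, as given above, and the part of free RNA in this split was not tested. Of 6937 genes tested, 6 were higher and 4 lower in the Krt24 or Gdf10 cells, or 0.0865% and 0.0577%, and 86 and 54 with the mouse as a block. Median depth was 7170 and 8113 UMIs against 7715 and 10254, and Scrublet doublets were 10 and 3 against 4 and 0. Krt15, which the rule read, stood at 7852 and 4525 CPM against 3238 and 2276.

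Ly6d, low in the members as a whole, was carried by the Krt24 or Gdf10 cells. It stood at 103 and 114 CPM there and at 9.53 and 4.90 in the Shisa2 cells, a rise of log2 3.95 ± 0.40 (adjusted p = 0.00453). Both mice separated widely, and the higher level stayed below the 706 and 638 of the basal others. Gfra1, the receptor of glial cell line-derived neurotrophic factor, stood at 162 and 193 against 24.8 and 20.8 and rose by 2.96 ± 0.30. Ccl27a, a chemokine of skin keratinocytes, stood at 386 and 432 against 89.6 and 85.8 and rose by 2.21 ± 0.25. Adarb2 and Hmcn1, leading genes of the members, followed the same split at 206 and 237 against 36.2 and 39.2, and at 1165 and 1463 against 265 and 312. They rose by 2.53 ± 0.27 and 2.17 ± 0.23.

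Named genes higher in the Shisa2 cells were Gjb2, Rerg, Prickle1 and Ccser1. Gjb2, a gap junction connexin, stood at 838 and 815 CPM in the Shisa2 cells and at 201 and 153 in the Krt24 or Gdf10 cells, a change of log2 -2.24 ± 0.25 (adjusted p = 0.00477). The levels did not overlap, and the members as a whole stood at 567 and 599.5 beside 542 and 596 in the other Krt15 cells. Rerg, a small GTPase, stood at 328 and 293 against 33.4 and 66.1, and Prickle1, a protein of planar cell polarity, at 522 and 742 against 129 and 145. Ccser1 stood at 274 and 376 against 69.4 and 68.7. These 3 were called lower in the Krt24 or Gdf10 cells, by 2.64 ± 0.33, 2.22 ± 0.27 and 2.25 ± 0.28.

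At an adjusted p under 0.05, 63 genes were higher and 46 lower in the Krt24 or Gdf10 cells. Higher were Sostdc1 at 509 and 440 against 83.8 and 131, Fst at 239 and 231 against 68.6 and 72.3, Col17a1 at 949 and 1208 against 454 and 327, Npnt at 224 and 165 against 59.1 and 20.8, Klf5 at 82.3 and 89.0 against 11.4 and 24.5, and Krt10, a suprabasal keratin, at 188 and 76.3 against 19.1 and 29.4. Cst6 of the isthmus list stood at 92.6 and 96.7 against 26.7 and 20.8, and Dmkn at 918 and 552 against 183 and 179, both also higher at that threshold. Ly6d and Cst6, low in the members as a whole, were thus higher in the Krt24 or Gdf10 cells than in the Shisa2 cells. Lower were Krt17 at 1957 and 1783 against 4385 and 3940, Pthlh at 41.2 and 63.6 against 200 and 222, and Ccnd1, the D-type cyclin, at 74.6 and 63.6 against 229 and 236. Sox9, Lhx2, Nfatc1 and Sfrp1 were not called and had differences of log2 0.50 ± 0.27, 0.78 ± 0.26, 1.20 ± 0.35 and 0.40 ± 0.21. With at least 3 Shisa2 UMIs asked of the Shisa2 cells, 3 of 9 named genes kept the call. Only 8 of the 9 had a value in cells under 0.5% collagen, after thinning and without doublets. Of those, 8, 7 and 7 kept the call.

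**Figure D4:**
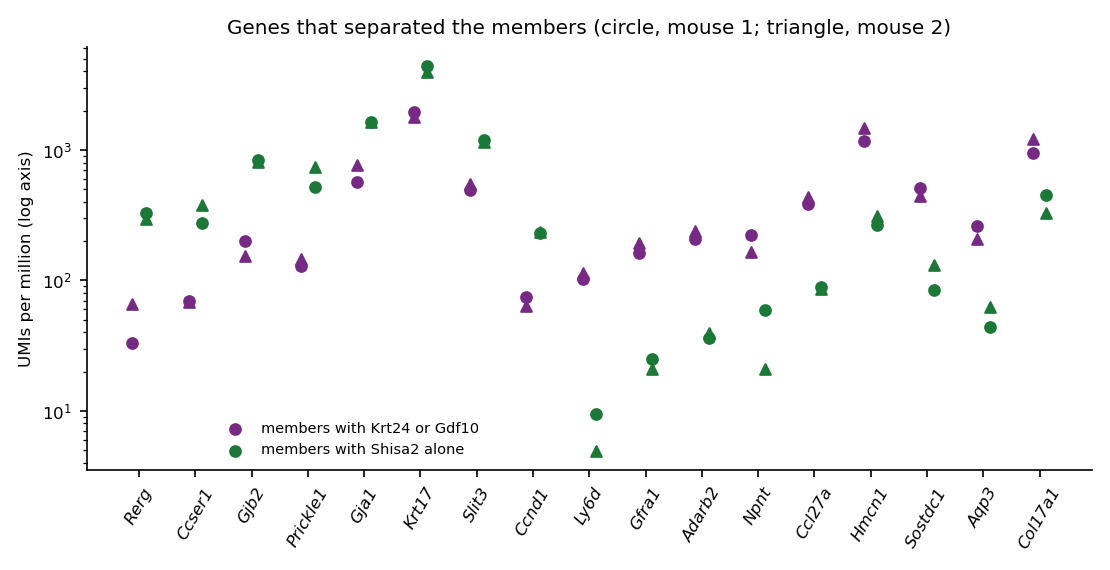
Level in CPM (vertical log axis) of genes that differed between members with a UMI of Krt24 or Gdf10 (purple) and members with Shisa2 alone (green), with a circle for mouse 1 and a triangle for mouse 2. Ly6d, Gfra1 and Adarb2 lie higher in the purple points of both mice, and Gjb2, Rerg and Prickle1 in the green ones.

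Cultured HFSCs of the same mice held no member cell. The filter left 262 and 94 cultured cells, all of which met the basal keratin limit, and 248 and 90 had at least 3 Krt15 UMIs. Krt24, Shisa2 and Gdf10 had 0 UMIs, so that 0 of 262 and 0 of 94 cells met the rule, which allows a share of up to 1.15% and 3.19% of cells with such UMIs. That limit covers counting error only and does not bound the share of cells that express these genes. Krt15 stood at 1877 and 1094 CPM, while Sfrp1 had 8 and 4 UMIs in all. Culture conditions were pooled here, and these cells had been selected for CD34 before culture.

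The 8 bulk libraries held from 25150162 to 35879630 counts, and in such libraries fewer cells of a type and less RNA per cell cannot be told apart. Rxra, the deleted gene, stood at 98 and 92 CPM in Rxra cKO FBS and 157 and 155 in Rxra cKO atRA+PKCi, against 136 and 108 and 160 and 149 in the wild-type libraries. In FBS both Rxra cKO libraries lay below both wild-type ones, while in atRA+PKCi the levels overlapped. The interaction of genotype and medium was log2 0.51 ± 0.13 (edgeR, adjusted p = 0.0216). The whole-gene count was thus not lost in the libraries labelled Rxra cKO. A count over the whole gene does not separate the floxed part, so that the deletion was not checked here.

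Krt15 differed by medium and by labelled genotype. Wild-type cells held 3.33 and 4.20 CPM in FBS and 4950 and 4600 in atRA+PKCi, and Rxra cKO cells 6.56 and 7.91 in FBS and 267 and 262 in atRA+PKCi. Every atRA+PKCi library was above every FBS library. Krt15 rose by log2 10.07 ± 0.17 in wild-type and by 5.07 ± 0.14 in Rxra cKO cells (edgeR, adjusted p = 6.16e-09 and 8.72e-08), and the interaction was -5.00 ± 0.19 (adjusted p = 2.01e-06). Sfrp1 rose less, from 2.63 and 2.05 to 23.2 and 20.0 in wild-type cells and from 1.60 and 1.21 to 3.54 and 3.54 in Rxra cKO cells, with an interaction of -1.74 ± 0.24 (adjusted p = 0.00115).

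The gate genes were low in culture. Krt24 was at most 0.187 CPM and Gdf10 at most 0.0398 in any library, too low to be tested. Shisa2 was at 0 in both wild-type FBS libraries and at 0.764 and 0.690 in wild-type atRA+PKCi, and it was called (adjusted p = 0.0112), although the level remained below 1 CPM. Adarb2, Hmcn1 and Scrg1 were also too low to be tested, each below 0.2 CPM throughout. No fold is given for these genes.

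The genes called in the members were then followed in the cultures. Of the 143 higher genes 114 were tested, and in wild-type cells 38 rose and 50 fell from FBS to atRA+PKCi, or 33.3% and 43.9%, against 27.2% and 26.6% of all 15965 genes. In Rxra cKO cells 33 rose and 36 fell, or 28.9% and 31.6%, against 20.8% and 22.2%. For the interaction 29 were positive and 20 negative, or 25.4% and 17.5%, against 13.3% and 11.3%. Of the 54 lower genes 46 were tested, and 14 rose and 19 fell in wild-type cells, or 30.4% and 41.3%. In Rxra cKO cells 8 of them rose and 25 fell, or 17.4% and 54.3%. For the interaction 16 were positive and 13 negative, or 34.8% and 28.3%. Of the higher genes, a larger share than of all genes changed in each direction in all 3 contrasts. The same held for the lower genes, except for the share that rose in Rxra cKO cells. Medians lay between log2 -0.30 and 0.14, beside -0.01 to 0.03 for all genes.

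Single genes moved in different ways. Npnt rose from 0.499 and 0.273 CPM to 3.09 and 3.65 in wild-type and from 1.45 and 0.965 to 4.79 and 5.61 in Rxra cKO cells, by log2 2.88 ± 0.33 and 2.00 ± 0.28. S100a4 went from 31.6 and 36.7 to 160 and 182 in wild-type cells, while Rxra cKO cells stood at 65.4 and 72.1 and at 66.8 and 77.7. Sorbs2 went from 0.233 and 0.478 to 6.88 and 6.58 in wild-type cells and from 0.363 and 0.529 to 0.725 and 0.755 in Rxra cKO cells. Both thus rose in wild-type cells, and the interaction was called for both. Sox9 stood at 95.4 and 72.3 in wild-type FBS and 187 and 162 in atRA+PKCi, a rise of 0.82 ± 0.11 (adjusted p = 0.000304), and at 70.7 and 72.0 against 94.0 and 98.3 in Rxra cKO cells (0.32 ± 0.11, adjusted p = 0.0502). The interaction of Sox9 was called narrowly (-0.51 ± 0.16, adjusted p = 0.0483) and lost the call in 7 of 8 leave-outs. Other bulge markers did not rise in wild-type cells. Nfatc1 fell from 5.86 and 4.06 to 0.903 and 1.55 CPM (log2 -2.24 ± 0.37, edgeR, adjusted p = 0.000916). Cd34 and Tbx1 were not called there, at -0.29 ± 0.41 and -0.24 ± 0.21. Lhx2 was at most 0.104 CPM in any library, too low to be tested.

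Aqp3 and Calml3 fell. Aqp3 went from 429 and 352 CPM to 150 and 144 in wild-type cells and from 265 and 263 to 105 and 97.8 in Rxra cKO cells, by log2 -1.65 ± 0.09 and -1.49 ± 0.09. Calml3 went from 84.5 and 78.2 to 6.53 and 6.21 in wild-type and from 42.6 and 49.8 to 24.8 and 21.0 in Rxra cKO cells. Enox1 was at most 0.697 CPM. Its call in wild-type cells (edgeR, adjusted p = 0.0236) was lost with DESeq2, with the replicate number as a block and when any of 3 single libraries was dropped.

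**Figure D5:**
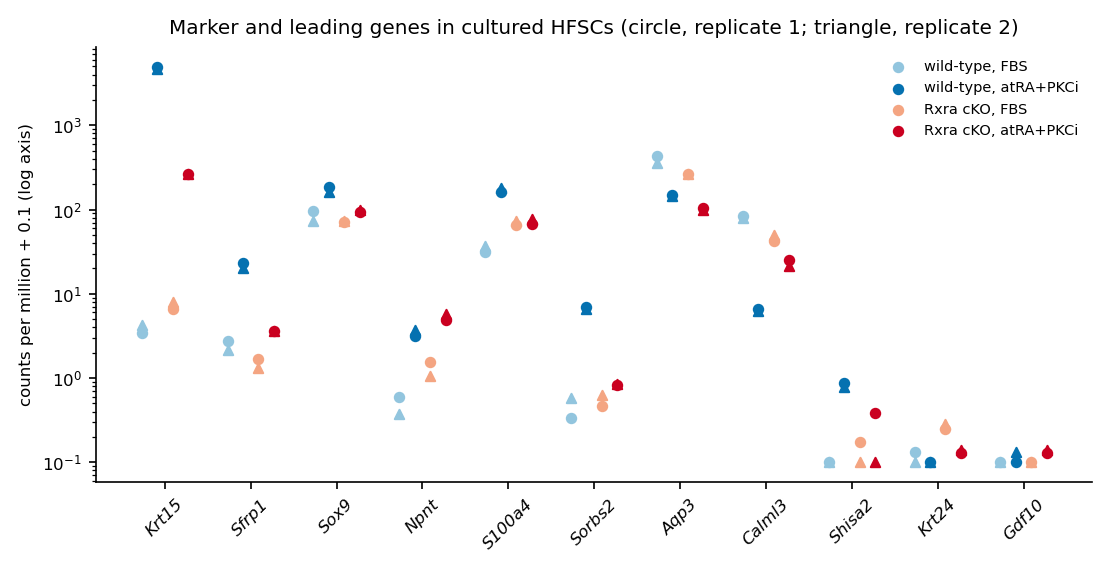
CPM plus 0.1 (vertical log axis) of label markers and leading genes in the 8 bulk libraries of cultured HFSCs, by genotype and medium, with a circle for replicate 1 and a triangle for replicate 2. Krt15 spans from 3.33 in FBS to 4950 in wild-type atRA+PKCi, with Rxra cKO atRA+PKCi at 267 and 262, while Krt24 and Gdf10 stay at the bottom in all libraries.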

How the data were processed

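Single cell libraries of skin and cultured HFSCs came from the same 2 mice. Bulk libraries came from HFSC cultures, 2 per genotype and medium, whose titles do not name the mouse. The deposited single cell counts were whole UMI counts per gene and barcode, made by the authors with Cell Ranger (7.0.1 in the submitters' processing notes, while file headers name another patch release) on mm10 with GENCODE gene names. Whether intronic reads were counted is not given in the sources used here. Ambient RNA and doublet correction named by the study are not in the deposited counts. The deposited bulk values are estimated counts that the authors made with Salmon 1.4.0, rounded here to whole numbers. Genes with close copies, such as Krt6a, Krt17 and the haemoglobins, can share reads, and Gm16599 lies antisense inside Cux1.

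UMIs were summed per mouse and set, the 6 rule genes were left out, and sums were tested with edgeR 4.0.16 quasi-likelihood (TMM, filterByExpr) in R 4.3.3, with Benjamini-Hochberg adjustment over all genes. A gene was called in skin when its adjusted p was under 0.01 and it changed by more than 1 on the log2 scale, and in the cultures when its adjusted p was under 0.05. Standard errors were the absolute log2 fold change divided by the square root of the F statistic of that test. Doublets were scored with Scrublet in scanpy 1.11.5. DESeq2 1.42.0, other filters, thinning, other rule thresholds and leave-outs were alternatives. The scripts were tested on simulated data. The narrower comparison was planned as an alternative, and its own alternatives, the split of members by gate gene and the collagen limit were chosen after seeing the data.

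Same-numbered skin sums come from 1 mouse and are paired by design. Their deviations from the group means correlated at 0.252 over 14664 genes. For same-numbered bulk libraries, whose titles give a number and no mouse, the value was 0.143 in wild-type and -0.002 in Rxra cKO over 15965 genes.

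Members and gene lists were chosen with earlier results of these data known. Named genes were the label and rule genes, 20 called genes that rose most and 10 that fell most at a mean of at least 50 CPM without overlap, up to 4 called genes per list and direction, 19 genes of the study, and up to 5 per direction between gate subsets. Further list members with values were named outside that rule, after their values were seen. Chromatin files were not used here.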

Additional observations from a re-analysis of the deposited data

Results flagged for a closer look

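The change from FBS to atRA+PKCi differed between the libraries labelled Rxra cKO and wild-type for 6 of the label markers and leading genes followed in the cultures. This was by the interaction term of edgeR. The difference, Rxra cKO minus wild-type on the log2 scale, was -5.00 for Krt15, -1.74 for Sfrp1, -2.13 for S100a4, -3.39 for Sorbs2 and 2.79 for Calml3. Each of these 5 kept its call in all 8 fits that dropped 1 library. For Sox9 the difference was -0.51 (adjusted p = 0.0483), and the call was lost in 7 of 8 such fits, whose values ran from -0.69 to -0.34. Beside the label markers and leading genes, the term was called for the rule genes Krt5 and Krt14, at 0.84 and 1.78 (adjusted p = 0.000791 and 5.06e-05). It was also called for Rxra at 0.51 and Cd34 at -1.81 (adjusted p = 0.0216 and 0.0432). Fits that dropped 1 library are not given for these. Each group held 2 libraries.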

How the results depend on the processing

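Counts of calls moved with the processing far more than directions did. Against all other Krt15 cells, 143 genes were higher and 54 lower in the members. The counts were 308 and 240 with the mouse as a replicate block, 299 and 149 with DESeq2, 398 and 436 with no filter on low counts, 227 and 102 with a gate sum of 4 UMIs, 223 and 129 in cells under 0.5% collagen, 490 and 392 at an adjusted p under 0.05 with no fold minimum, 210 and 92 without doublets, 96 and 27 with 10 Krt15 UMIs, and 25 and 45 against the basal others only. Against the basal others, where 25 and 45 were called, they were 86 and 126 with the block, 52 and 65 with DESeq2, 74 and 67 after thinning, 61 and 83 without doublets, 46 and 65 under 0.5% collagen, 48 and 55 with 10 Krt15 UMIs, 57 and 85 with a gate sum of 0 in the others and 89 and 106 at an adjusted p under 0.05. Between the gate subsets, where 6 and 4 were called, they were 86 and 54 with the block, 38 and 26 with DESeq2, 180 and 106 with no filter, 11 and 9 after thinning, 30 and 7 without doublets, 14 and 5 under 0.5% collagen, 2 and 1 with 3 Shisa2 UMIs asked of the others and 63 and 46 at an adjusted p under 0.05. The cause was not tested.

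Of 58 named genes called against all others, 58 kept the call with DESeq2 and the block, 57 without doublets, 52 after thinning, 44 with 10 Krt15 UMIs and 15 against the basal others. In the cultures the block paired libraries of a genotype by replicate number, which the titles do not tie to an animal. It ended the Enox1 calls in both genotypes and gave a call to Sox9 in Rxra cKO cells. No other call of the label markers and leading genes followed in the cultures changed with it. Ccl27a, not called at log2 0.16, was -1.36 against the basal others, and Gjb2, at 0.06, was -1.21 with a gate sum of 4 UMIs.

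In the cultures, with an adjusted p under 0.01 and a log2 fold change beyond 1, genes higher in the members gave 24 positive and 29 negative in wild-type cells, 20 and 12 in Rxra cKO cells and 15 and 11 for the interaction, and lower genes gave 4 positive in wild-type cells, 4 and 11 in Rxra cKO cells and 10 and 2 for the interaction. With leading genes taken at an adjusted p under 0.05, the counts were 143 and 182, 136 and 133, and 129 and 66 for higher genes, and 94 and 107, 49 and 175, and 47 and 116 for lower genes. The share of all genes at the stricter limit is not given here, nor the number tested of the larger lists. These counts are therefore not read against all genes. Leaving out 1 library gave 5 to 8 positive lower genes in Rxra cKO cells, and 8 to 13 negative ones for the interaction. The lowest, 5 and 8, came when the second and the first Rxra cKO atRA+PKCi library was dropped. The share of member cells fell to 0.250% and 0.234% when the rule was applied after thinning. The planned comparison by single gate gene has no values. With 101 and 116 cells per sum, differences in low genes may not be detectable.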

Other observations

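The following genes were chosen after their values were seen. Krtap17-1, a keratin-associated protein gene, stood at 32.8 and 39.7 CPM in the members, 0.409 and 0.334 in all other Krt15 cells and 0.822 and 0.352 in the basal others. Both members lay above every other sum, with changes of log2 6.604 ± 0.36 and 5.87 ± 0.43 (edgeR, adjusted p = 0.000306 and 0.000501). Pdzrn4, a ubiquitin ligase of the PDZ family, stood at 93.1 and 91.0 against 7.31 and 6.55 and against 22.8 and 17.1.

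Class I histocompatibility genes H2-D1 and H2-K1 were lower than in the basal others. H2-D1 stood at 241 and 235 against 597 and 546, and H2-K1 at 171 and 196 against 451 and 409. The levels did not overlap, with changes of log2 -1.296 ± 0.15 and -1.26 ± 0.16 (edgeR, adjusted p = 0.00511 and 0.00778). Against all other Krt15 cells the differences of -0.18 and -0.11 were not called.

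Haemoglobin transcripts were lower in the members in both comparisons. Hbb-bs stood at 105 and 125 against 722 and 437 and against 676 and 461, and Hba-a1 at 56.9 and 67.0 against 357 and 255 and against 284 and 289.8.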
